A study of Mus musculus with 14 samples.

Results

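The genes described here are 10 enzymes that make NADPH or carry the pentose phosphate pathway, chosen by name and by role: 3 of the oxidative branch (G6pdx, Pgls, Pgd), 4 of the non-oxidative branch (Taldo1, Tkt, Rpia, Rpe) and 3 NADPH-linked enzymes outside it, grouped here as the non-pentose sources (Me1, Idh1, Idh2). They are 10 of 34452 mouse gene rows in the count table, and all 10 were expressed highly enough to be tested. The tissue was the RPE (retinal pigment epithelium), the pigmented sheet that lies under the photoreceptors, taken from 7 rd1 mice on postnatal day 20. These mice are of the FVB/N strain and carry a loss-of-function mutation of Pde6b, so that their rods die early in life, and both groups share this mutation. Both eyes of each mouse received AAV-Best1-GFP, and 1 eye also received AAV-Best1-Nrf2, which carries the human gene NFE2L2 in another capsid. The groups are called control (GFP alone) and Nrf2 (GFP and Nrf2), and each library is named by its group and mouse. The Nrf2 eye thus differed from its partner by the transgene and by an additional vector, and these cannot be told apart. The human Best1 promoter was chosen in the study for its activity in the RPE, and the RNA was collected from eyecups after the retina had been taken out, so other cells of the eyecup could contribute.

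NADPH is the electron donor that glutathione reductase, thioredoxin reductase and many synthetic and detoxifying enzymes consume. In the oxidative branch of the pentose phosphate pathway, glucose-6-phosphate dehydrogenase and 6-phosphogluconate dehydrogenase each form NADPH, and 6-phosphogluconolactonase works between them. The non-oxidative branch makes no NADPH. It interconverts the sugar phosphates and can return them to glycolysis, so that carbon can pass through the oxidative branch again. Malic enzyme 1 and isocitrate dehydrogenase 1 form NADPH in the cytosol, and isocitrate dehydrogenase 2 forms it in mitochondria. The transcription factor Nrf2 binds, as a dimer with small Maf proteins, to antioxidant response elements, and G6pdx, Pgd, Taldo1, Tkt and Me1 are commonly listed among its target genes.

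The core letters of that element, TGACNNNGC, were looked for on both strands of RefSeq promoter windows, which run from 250 bases before to 50 bases after a transcript's start (GRCm38.p6, the C57BL/6J reference and not the FVB/N strain of these mice). All 10 genes had a window and the 10 genes had 13 in all. The letters were found in 3 of these 13 windows, and in 4071 of all 32851 windows (12.4%). The 3 stretches around the matches are shown because they belong to 3 of the 4 members that differed between the groups. Each reads 5′ to 3′ on the strand of its gene, and the capitals mark the match. The pieces lie at chrX:74428914-74428997, chr4:149166056-149166139 and chr9:86695897-86695980, all on the minus strand.
G6pdx: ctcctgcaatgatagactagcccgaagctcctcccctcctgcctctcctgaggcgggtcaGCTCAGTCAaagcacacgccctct
Pgd: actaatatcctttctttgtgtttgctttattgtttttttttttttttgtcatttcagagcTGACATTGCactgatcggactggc
Me1: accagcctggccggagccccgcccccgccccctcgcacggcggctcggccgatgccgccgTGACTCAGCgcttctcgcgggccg
In G6pdx the match lay on the opposite strand, 57 to 49 bases before the start. In Pgd it began 4 bases into the second of 2 annotated starts, and in Me1 it spanned the first of 2. The window of the first start of Pgd, chr4:149166656-149166955, did not hold the letters. The window of its second start, chr4:149166033-149166332, lies wholly inside the annotated gene, so the Pgd match is not at the outermost start. The gene annotation used for transcript lengths holds only 1 coding transcript of Pgd. Whether the second start is used in this tissue was not tested, so this match is not shown to lie in a promoter. The windows of Taldo1 and of the 6 other members did not hold these letters. A match is a description of the letters, and its absence concerns only these windows.

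Total counts ranged from 16548349 to 50543008 per library. Values are given below as CPM, counts per 1e+06 of a library's total after scaling by the trimmed mean of M values (TMM). The vector transcript NFE2L2 was higher in the Nrf2 eye of 7 of 7 mice, from 1146 to 9826 CPM against 0.987 to 1160 CPM in control eyes. Those ranges met in libraries control 3, at 1160 CPM, and Nrf2 4, at 1146 CPM. These 2 libraries, of different mice and groups, were also close for members that rose and for members that did not. Pgd stood at 183 CPM in control 3 and 176 CPM in Nrf2 4, and Taldo1 at 674 and 671 CPM. Tkt stood at 621 and 600.5 CPM, and Idh2 at 161 and 156 CPM. The cause was not tested, and the labels were kept as given. The 4 members that passed are therefore also given without mice 3 and 4. The RPE markers summed to between 17060 and 34560 CPM in every library, although Best1 itself averaged 1.94 CPM in control eyes. Markers of other cells were detected as well. Of 8 cone markers, 2 were lower in Nrf2 eyes, Opn1sw with a log2 fold change of -5.12 and Gnat2 with -1.69, and the estimates of all 8 were below 0. DESeq2 called 6 of these lower and voom 8. Of 8 rod markers edgeR called 0 lower (4 at an unadjusted p below 0.05), DESeq2 4 and voom 5. Over all genes tested by edgeR, 2960 of 16289 had an unadjusted p below 0.05, in either direction. DESeq2 called 1217 of 18406 genes higher and 690 lower, and voom called 1585 of 16289 higher and 1005 lower. The cone markers summed to 43.2 to 919 CPM in control eyes and 19.8 to 90.9 CPM in Nrf2 eyes, and rod markers to 20.7 to 456 CPM and 6.37 to 83.8 CPM. Among 12 RPE markers Rpe65 fell, by 2.17 on the log2 scale (SE 0.37, adjusted p = 0.0199). Ttr had 1.58 without passing (SE 0.45, adjusted p = 0.104), and the estimates of 5 of the 12 were above 0. DESeq2 and voom each called 1 RPE marker higher and 1 lower. Opn1sw, Gnat2 and Rpe65 lost their calls when mouse 1 was left out, with adjusted p of 0.161, 0.0924 and 0.0651, and also without mouse 5. Rpe65 further lost its call without mouse 2, 3 or 6, Gnat2 without mouse 2, 6 or 7, and Opn1sw without mouse 3 or 7. Each of these 3 genes kept its call in 8 of 13 alternatives. Opn1sw lost its call with mice 3 and 4 left out as well (adjusted p = 0.109). Immune cell markers summed to 231 to 403 CPM in control and 155.5 to 495.5 CPM in Nrf2 eyes, and fibroblast markers to 114.5 to 700 CPM and 291 to 980 CPM. The part of these shifts in the results below was not tested, and in such tissue fewer cells of a type and less RNA per cell cannot be told apart. No marker of any of the 9 lists was at 0 in all libraries. Fold changes are log2 values of Nrf2 over control from edgeR's quasi-likelihood test with mouse as a block, adjusted over all 16289 mouse genes tested by the Benjamini-Hochberg method, with 0.05 as the threshold.

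Of the 10 members, 4 were higher in Nrf2 eyes. By edgeR, DESeq2 and voom 0 were lower, also at an unadjusted p below 0.05. In edgeR fits without mouse 4, and without mice 3 and 4, 1 member was lower at that unadjusted level. This was Tkt, with -0.37 and -0.42, and it did not pass after adjustment. Over all genes tested, 3.43% passed in either direction, 2.94% higher and 0.491% lower. In that fit of all mice 2960 of 16289 genes had an unadjusted p below 0.05, in either direction. The 4 were spread over the 3 classes: G6pdx and Pgd of the oxidative branch, Taldo1 of the non-oxidative branch and Me1 of the non-pentose sources. Each was higher in the Nrf2 eye of 7 of 7 mice, which held for 5.49% of all genes tested. The same 4 passed with mice 3 and 4 left out, when the log2 fold change was 1.63 for G6pdx, 2.25 for Pgd, 1.97 for Taldo1 and 1.47 for Me1, and they passed with DESeq2 and voom. Without mouse 7 only Pgd and Taldo1 did. The median log2 fold change was 1.53 over the 3 oxidative genes, 0.03 over the 4 non-oxidative genes and 0.32 over the 3 non-pentose genes, and -0.04 over all genes.

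**Figure D1:**
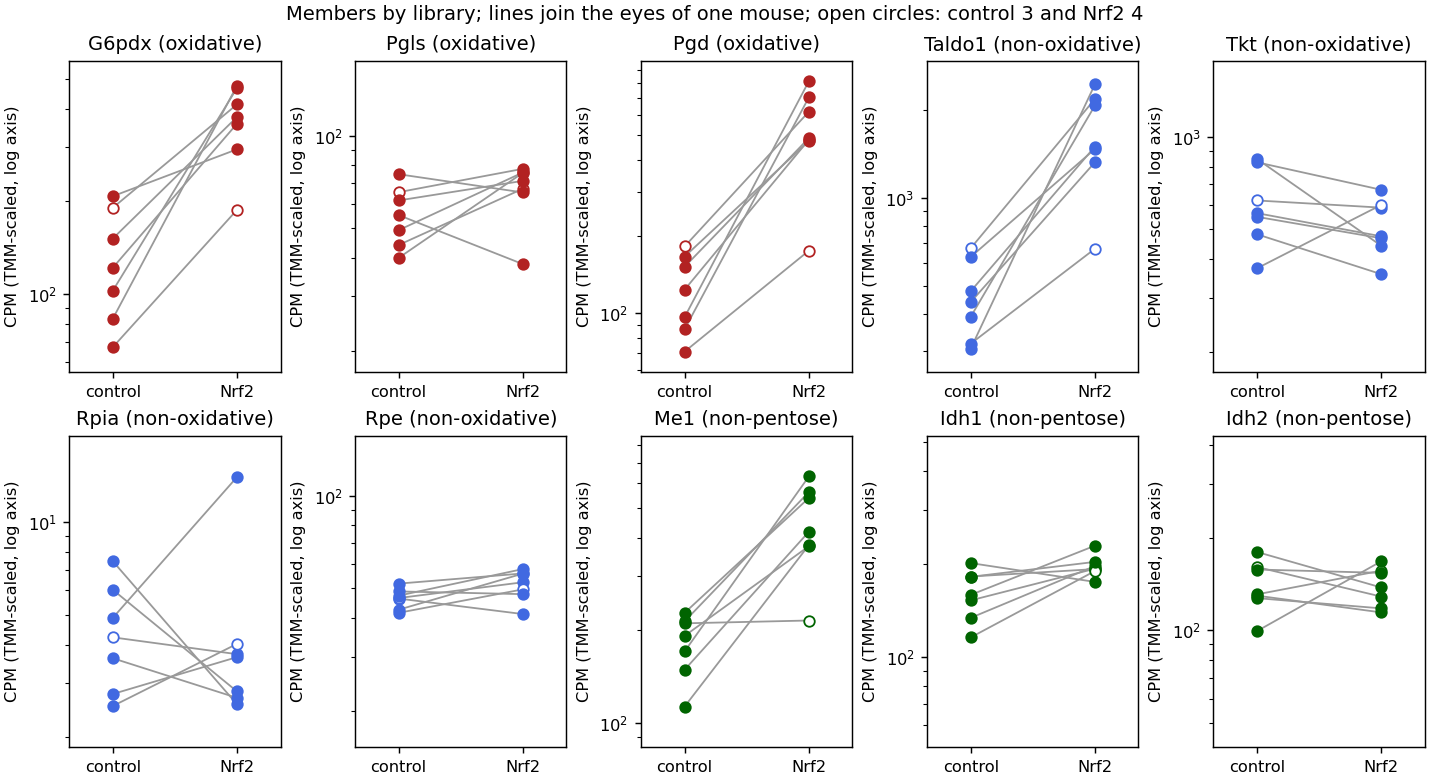
CPM of the 10 members (vertical log axes, each spanning its own range) in control and Nrf2 eyes, 1 panel a gene. Points are libraries, lines join the 2 eyes of a mouse, open circles mark control 3 and Nrf2 4, and colours give the class. For G6pdx, Pgd, Taldo1 and Me1, 6 of 7 Nrf2 libraries lie above all 7 controls.

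The oxidative branch was examined first. G6pdx (ENSMUSG00000031400, chrX:74409483-74429194, minus strand) encodes glucose-6-phosphate dehydrogenase, the entry enzyme of the pathway and its main point of control. Its level was 83.0, 122, 190.5, 67.1, 151, 208 and 102 CPM in control eyes 1 to 7. In Nrf2 eyes 1 to 7 it was 475, 358, 413, 188, 376, 295 and 467 CPM. All Nrf2 eyes but that of mouse 4 lay above every control, and the groups overlapped only because Nrf2 4 was below control 3 and control 6. The mean was 132 ± 53.4 CPM in control and 368 ± 101 CPM in Nrf2 eyes (SD, n = 7). This rise came to 1.53 on the log2 scale (SE 0.23, adjusted p = 0.0138). The per-mouse difference was smallest in mouse 6, at 0.51, and largest in mouse 1, at 2.52. Mouse 6 had the highest control value of G6pdx although its control eye held only 1.23 CPM of the vector transcript. Reads of the near-identical gene G6pd2 (93.2% identical over 2332 bp) made up at most 0.0865% of both genes' counts in any library.

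Pgd (ENSMUSG00000028961, chr4:149149991-149166771, minus strand) encodes 6-phosphogluconate dehydrogenase, which forms the second NADPH and releases ribulose 5-phosphate. In control eyes 1 to 7 it stood at 86.4, 124, 183, 70.6, 152, 167 and 96.4 CPM. In Nrf2 eyes 1 to 7 it stood at 702, 479, 617, 176, 486, 473.5 and 813 CPM. Pgd rose by the most among the 10 members, 2.04 on the log2 scale (SE 0.25, adjusted p = 0.00936). Its means were 125.5 ± 42.9 CPM in control and 535 ± 204 CPM in Nrf2 eyes (SD, n = 7). No gene of the table had a smaller adjusted p, and several shared this value. The differences fell into a higher pair, 3.02 in mouse 1 and 3.07 in mouse 7, and 5 mice between 1.32 and 1.95. The overlap came again from Nrf2 4, which lay just below control 3. No annotated copy of Pgd with at least 90% identity was found.

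Pgls (ENSMUSG00000031807, chr8:71592176-71601092, plus strand) encodes 6-phosphogluconolactonase, which hydrolyses the lactone made by the first step and forms no NADPH. It ranged from 40.0 to 74.9 CPM in control eyes (median 55.1) and from 38.2 to 78.0 CPM in Nrf2 eyes (median 71.3). The log2 fold change was 0.27 with a 95% interval from -0.12 to 0.67 (SE 0.17, adjusted p = 0.44), and the Nrf2 eye was higher in 5 of 7 mice. The lowest of all 14 values was that of Nrf2 2, the library with the fewest counts and with 2.55% of counts in pseudogenes, against 1.06% to 1.17% in the 13 others. The part of this in the Pgls value was not tested. The upper end of its interval lies below the lower ends for G6pdx, at 1.00, and Pgd, at 1.47.

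In the non-oxidative branch 1 of 4 genes passed. Taldo1 (ENSMUSG00000025503, chr7:141392199-141402968, plus strand) encodes transaldolase, which moves a dihydroxyacetone unit between sugar phosphates. Control eyes 1 to 7 held 305, 441, 674, 318, 480, 629 and 392.5 CPM. Nrf2 eyes 1 to 7 held 2450, 1326, 2182, 671, 1500, 1472 and 2073 CPM. Nrf2 4, the only Nrf2 eye within the control range, lay just under control 3. Means were 463 ± 143.5 CPM in control and 1668 ± 608 CPM in Nrf2 eyes (SD, n = 7), and Taldo1 thus rose by 1.80 on the log2 scale (SE 0.25, adjusted p = 0.0111). The processed pseudogene Gm17823, 94.7% identical over 923 bp, accounted for at most 0.272% of both genes' counts.

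Tkt (ENSMUSG00000021957, chr14:30548359-30574720, plus strand) encodes transketolase, the thiamine-dependent partner that moves 2-carbon units. Its level in control eyes ranged from 373.5 to 848 CPM (median 565), and in Nrf2 eyes from 358 to 673 CPM (median 475). The groups overlapped over most of their ranges. The log2 fold change was -0.22 (SE 0.18, 95% interval -0.63 to 0.19, adjusted p = 0.55), and only mouse 4 had a higher value in its Nrf2 eye, by 0.68. Without mice 3 and 4 the value was -0.42 (adjusted p = 0.20). An increase of the size seen for Taldo1 thus lay outside the interval for Tkt.

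Rpia and Rpe encode the enzymes that share ribulose 5-phosphate, ribose-5-phosphate isomerase on the way to ribose and ribulose-5-phosphate 3-epimerase on the way to xylulose. Rpia (ENSMUSG00000053604, chr6:70765720-70792232, minus strand) was the lowest member. It ranged from 2.53 to 7.47 CPM in control eyes (median 4.22) and from 2.56 to 14.02 CPM in Nrf2 eyes (median 3.64), the highest value being that of Nrf2 2. The estimate for Rpia was -0.09 (SE 0.39, adjusted p = 0.93) with a wide 95% interval, from -0.99 to 0.80, that holds changes in either direction. Rpe (ENSMUSG00000026005, chr1:66700831-66719805, plus strand) was the steadiest, with a coefficient of variation of 7.52% among control eyes. It ranged from 41.6 to 51.8 CPM there and from 41.2 to 57.7 CPM in Nrf2 eyes. The log2 fold change of Rpe was 0.15 (SE 0.09, 95% interval -0.06 to 0.36, adjusted p = 0.44). A stretch of 558 bp is identical between Rpe and the neighbouring gene Kansl1l (14.7 CPM in control and 9.63 CPM in Nrf2 eyes), and how its reads were divided is uncertain.

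Outside the pathway, Me1 (ENSMUSG00000032418, chr9:86581371-86695953, minus strand) encodes cytosolic malic enzyme, which turns malate into pyruvate. Control eyes 1 to 7 had 171, 192, 214, 211, 113, 149 and 228 CPM. Nrf2 eyes 1 to 7 had 632, 375, 562.5, 215, 378, 418 and 538 CPM. The Nrf2 eye of mouse 4 stood at the level of its control eye, with a difference of 0.03, whereas the other 6 mice differed by 0.97 to 1.89. From a control mean of 182 ± 40.9 CPM to a mean of 446 ± 142 CPM in Nrf2 eyes (SD, n = 7), Me1 rose by 1.26 on the log2 scale (SE 0.22, adjusted p = 0.0203). This call was the least secure of the 4: with mouse 1, 3, 5, 6 or 7 left out the fold change stayed between 1.16 and 1.27, and the adjusted p was 0.0769, 0.0836, 0.069, 0.061 and 0.0831. Without mice 3 and 4 it was 1.47 (adjusted p = 0.00814). The processed pseudogene Gm7049, which is 98.5% identical to Me1 over 1638 bp, was counted at 22 CPM in control and 52.6 CPM in Nrf2 eyes. With the counts of Gm7049 and of a shorter copy, Gm7329, added to Me1, the change was 1.26 (adjusted p = 0.0214).

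Idh1 (ENSMUSG00000025950, chr1:65158616-65186500, minus strand), the cytosolic isocitrate dehydrogenase, ranged from 115.5 to 201.5 CPM in control eyes (median 159) and from 175 to 229.5 CPM in Nrf2 eyes (median 193). In 6 of 7 mice the Nrf2 eye had more Idh1 than its partner, with a log2 fold change of 0.32 (SE 0.13, 95% interval 0.03 to 0.60), and did not pass after adjustment (adjusted p = 0.24). The values spread less in Nrf2 eyes, with an SD of 16.6 CPM against 30.04 CPM in control eyes, a difference that was not tested. Idh2 (ENSMUSG00000030541, chr7:80094846-80115392, minus strand), the mitochondrial NADP-dependent enzyme, ranged from 99.4 to 180 CPM in control eyes (median 131) and from 114 to 168 CPM in Nrf2 eyes (median 138). The estimate for Idh2 was -0.00 (SE 0.14, adjusted p = 1.00), with a 95% interval from -0.33 to 0.32. All Nrf2 values of Idh2 lay within the control range.

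**Figure D2:**
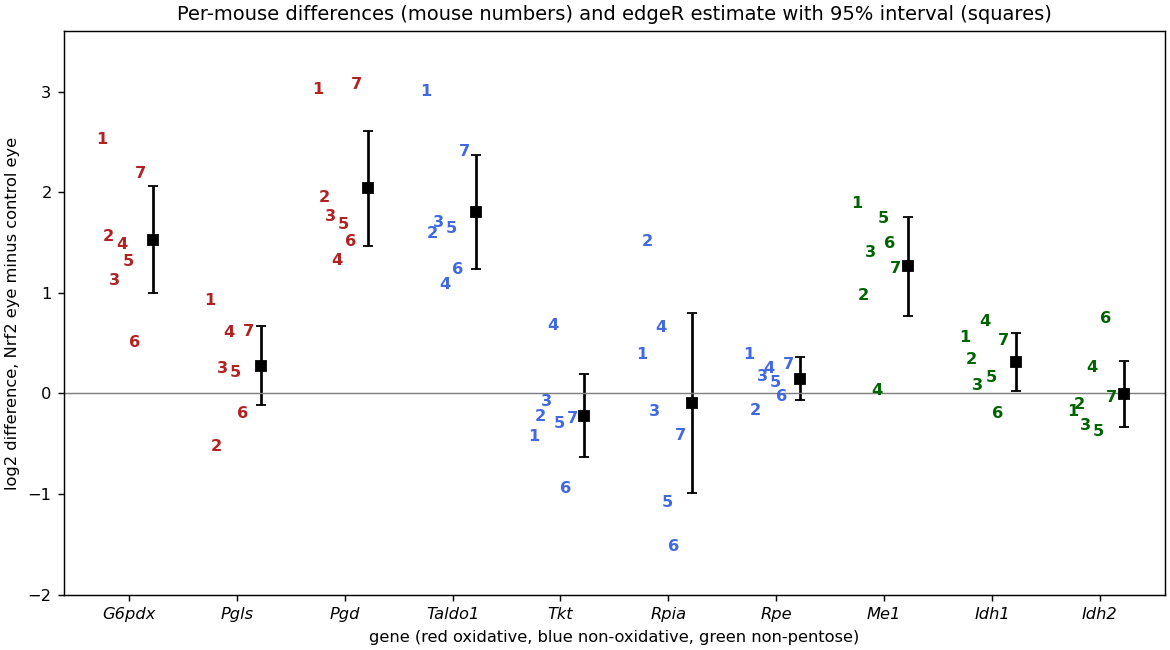
Difference of log2 CPM between the eyes of each mouse (vertical axis, Nrf2 minus control) for the 10 members (horizontal axis). Digits are mouse numbers, squares the edgeR estimates and bars their 95% intervals. G6pdx, Pgd, Taldo1 and Me1 have 7 of 7 mice above 0, and Tkt has 1.

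No member separated the groups completely, as 1.18% of all genes did with Nrf2 higher. With control 3 and Nrf2 4 set aside, G6pdx, Pgd, Taldo1 and Me1 each did, as did 4.87% of all genes with Nrf2 higher, and the other 6 still overlapped. Control 6 was the highest control for 5 members, G6pdx, Pgls, Tkt, Rpia and Idh1, and the lowest for Idh2.

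To compare members with each other, the log2 ratio of a pair was taken within each library, and its change from the control to the Nrf2 eye was tested over the 7 mice by exact permutation, flipping the signs of the 7 changes in every possible way (two-sided). There were 7 pairs chosen by role. With 7 mice this exact test cannot go below p = 0.0156, and none of the 7 pairs passed after adjustment over them. The changes of Taldo1 against Tkt and of Pgd against Pgls had the same sign in 7 of 7 mice. Both pairs were at that lowest p, so with the p of the other pairs they could not pass, whatever the size of their change. Taldo1 gained on Tkt by 2.03 ± 0.93 (SD, n = 7, 95% interval 1.11 to 2.80, exact p = 0.0156, adjusted 0.0547), from a log2 ratio of CPM, not per length, of -0.41 ± 0.30 to 1.62 ± 0.82. Pgd gained on Pgls by 1.77 ± 0.63 (SD, n = 7, 95% interval 1.11 to 2.45, exact p = 0.0156, adjusted 0.0547).

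The other pairs included 4 among the NADPH-forming enzymes. The log2 ratio of Pgd to G6pdx, in CPM and not per length, was -0.04 ± 0.13 in control eyes and 0.47 ± 0.29 in Nrf2 eyes (SD, n = 7). That change of 0.52 ± 0.38 (SD, n = 7, 95% interval 0.12 to 0.88) was seen in 6 of 7 mice, with mouse 4 at -0.17 (exact p = 0.0312, adjusted 0.0729). Me1 against Idh1 changed by 0.94 ± 0.82 (SD, n = 7, 95% interval 0.01 to 1.58), again with mouse 4 opposite, at -0.69 (exact p = 0.0469, adjusted 0.082). For Me1 against G6pdx the change was -0.27 ± 0.86 and ranged from -1.45 to 0.98, so neither gene gained on the other in a direction that the mice shared (95% interval -1.04 to 0.63, exact p = 0.438, adjusted 0.51). Idh1 against Idh2 changed by 0.32 ± 0.57 (SD, n = 7, exact p = 0.188, adjusted 0.263), above 0 in 6 of 7 mice and -0.96 in mouse 6. Rpia against Rpe changed by -0.24 ± 1.07 (SD, n = 7, 95% interval -1.19 to 0.84, exact p = 0.594, adjusted 0.594).

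**Figure D3:**
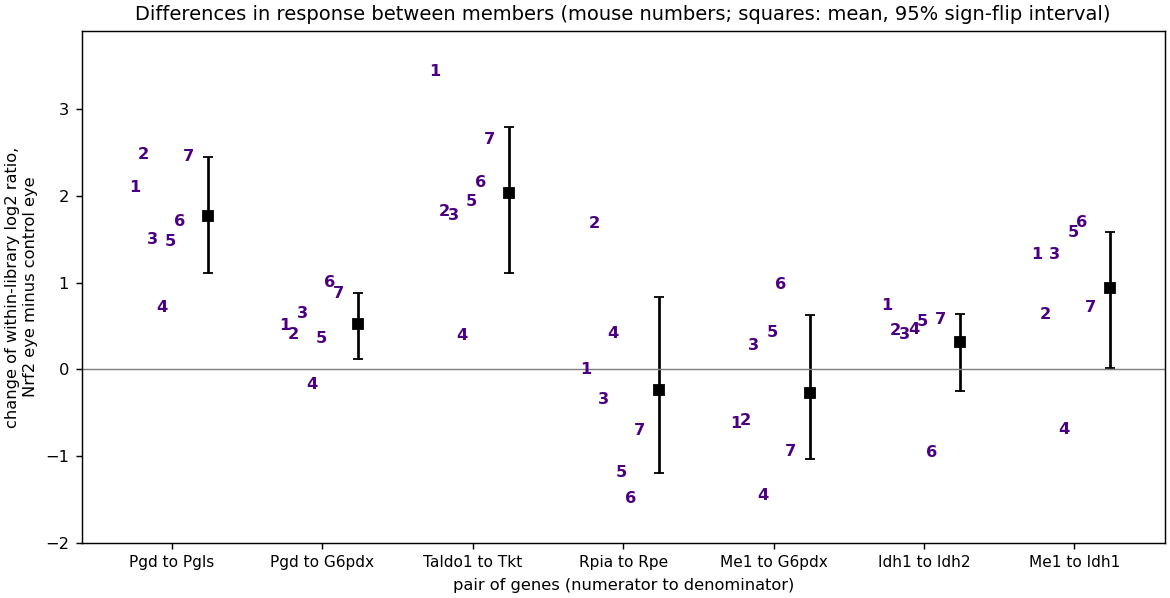
Change of the within-library log2 ratio of 7 pairs of members (vertical axis, Nrf2 minus control eye). Digits are mouse numbers, squares the mean of 7 mice and bars the 95% interval from the sign-flip test. Taldo1 to Tkt and Pgd to Pgls lie above 0 in all 7 mice, and Me1 to G6pdx and Rpia to Rpe lie on both sides of 0.

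Levels of different genes were compared per kilobase, as CPM divided by the length of the longest coding transcript. In control eyes Taldo1 was highest at 340 ± 105 CPM per kb (SD, n = 7), followed by Tkt at 189 ± 54.0, and their ranges overlapped. The next 6, from Idh2 at 80.7 ± 15.4 through Idh1, Pgd, Me1 and Pgls to G6pdx at 49.8 ± 20.1 CPM per kb, overlapped with their neighbours and were not distinguished by their spread. Rpe, at 17.1 ± 1.29, and Rpia, at 2.46 ± 0.976 CPM per kb, lay below them without overlap. In Nrf2 eyes Taldo1 stood alone, at 1224 ± 446 CPM per kb with a lowest value of 492.8, above the highest value of Pgd, 366. Pgd came second, at 241 ± 92.0 CPM per kb, ahead of Tkt at 160 ± 33.8, although these ranges overlapped, and G6pdx and Me1 followed, at 139 ± 38.2 and 135 ± 43.0 CPM per kb. With the mean length of a gene's coding transcripts instead, Idh1 came to 148 and Idh2 to 132 CPM per kb in control eyes, so order between genes depends on the transcript assumed.

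Summed over a class on this scale, the oxidative genes went from 159 ± 50.4 to 443 ± 134 CPM per kb (SD, n = 7) and the non-oxidative genes from 548.5 ± 150 to 1406 ± 432, most of it Taldo1. The non-pentose genes went from 206 ± 20.9 to 301 ± 42.3 CPM per kb. The log2 ratio between the eyes was 1.48 ± 0.61, 1.34 ± 0.55 and 0.54 ± 0.20 for these classes (SD, n = 7), and every class sum was higher in the Nrf2 eye of 7 of 7 mice. A higher class sum thus does not mean that each gene of the class rose. These sums describe chosen genes and carry no test.

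Among the 5 enzymes that form NADPH, the make-up of the RNA changed. Their sum went from 312 ± 51.3 to 681 ± 169 CPM per kb (SD, n = 7). In control eyes the isocitrate dehydrogenases held the largest shares, 26.2% ± 5.07 for Idh2 and 22.3% ± 1.77 for Idh1. In Nrf2 eyes these were 12.7% ± 5.16 and 13.3% ± 3.77, while the share of Pgd was 34.2% ± 6.48 against 17.7% ± 3.6. G6pdx had 15.5% ± 4.28 in control and 20.2% ± 1.71 in Nrf2 eyes. Me1 had nearly equal shares, 18.3% ± 5.46 and 19.6% ± 2.32. With the mean length of the coding transcripts, an alternative chosen after seeing the data, the control shares were 32.1% ± 2.35 for Idh1, 29.1% ± 5.47 for Idh2 and 12.0% ± 2.47 for Pgd. In Nrf2 eyes they were then 21.4% ± 4.63, 15.7% ± 5.36 and 26.5% ± 5.95. In Nrf2 4 the shares by longest transcript of Pgd (20.5%) and Idh2 (23.1%) lay within their control ranges. Shares must sum to a whole, so a lower share of Idh1 or Idh2 is no lower level of either.

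**Figure D4:**
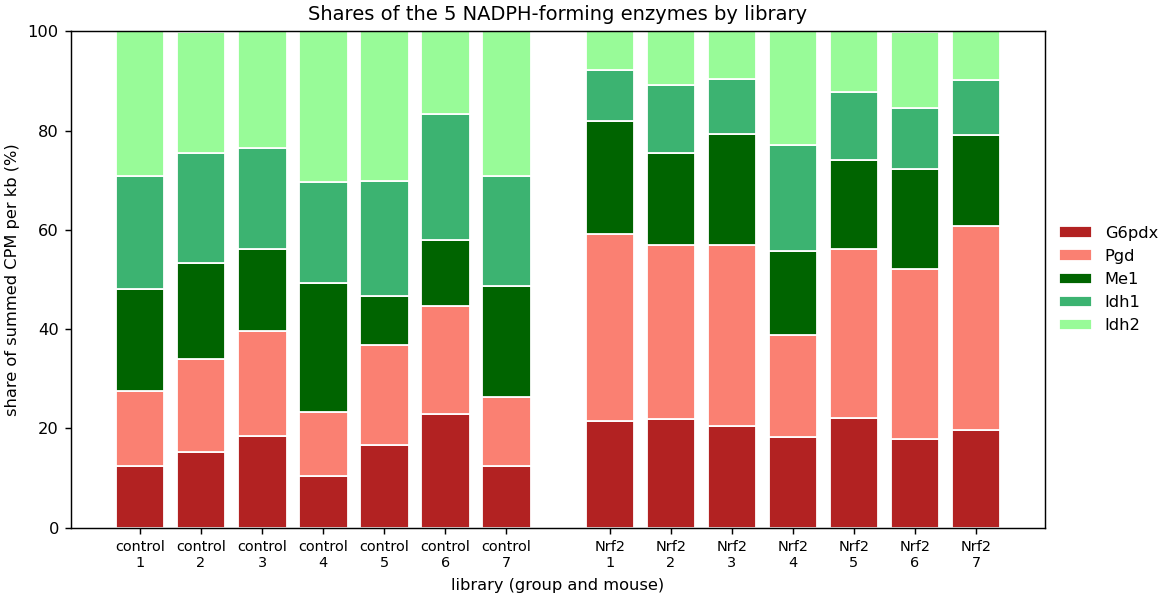
Share of the summed CPM per kb of G6pdx, Pgd, Me1, Idh1 and Idh2 (vertical axis, percent) in each library (horizontal axis, group and mouse). Pgd has a mean share of 17.7% in control and 34.2% in Nrf2 eyes, and 20.5% in Nrf2 4.

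Over the 14 libraries the profile of Taldo1 was nearest to that of Pgd among the members, with a Pearson correlation of log2 CPM of 0.990, followed by G6pdx at 0.981 and Me1 at 0.862. Those of Rpia, Idh2 and Tkt were 0.025, -0.073 and -0.181. The genes outside the members most like Pgd, of 11995 compared, were Gss (glutathione synthetase) at 0.989, Cyb5a (cytochrome b5) at 0.989, Gstm2 (a glutathione S-transferase whose close family copies make its count uncertain) at 0.988, Abcc4 (an efflux transporter) at 0.987 and Tubb4b (a tubulin) at 0.987. These values span both groups and share the libraries and their scaling, so they are a description. Within groups, from deviations about the group means of the 14 libraries, Pgd, Taldo1 and G6pdx had correlations of 0.92 to 0.96 with each other, while Me1 had 0.50 with Pgd, 0.60 with Taldo1 and 0.30 with G6pdx. Among members that did not pass, Idh1 had 0.83 and Pgls 0.60 with G6pdx. Library Nrf2 4 was the lowest Nrf2 eye for Pgd, Taldo1, G6pdx and Me1 alike, and control 3 was the highest control for Pgd and Taldo1. The part of these libraries in the correlations was not tested.

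Other genes around these enzymes were then examined by list, beside 2.94% of all genes tested that were higher and 0.491% that were lower. Those shares are edgeR's, where 2960 of 16289 genes had an unadjusted p below 0.05 in either direction. DESeq2 called more, 1217 of 18406 higher and 690 lower, as did voom, with 1585 of 16289 higher and 1005 lower. Without mouse 4 edgeR called 978 of 16318 higher and 1020 lower. Of 12 further pentose phosphate genes 9 could be tested, and 1 was higher: Prps2, which makes phosphoribosyl pyrophosphate from ribose 5-phosphate, rose by 0.94 on the log2 scale (SE 0.13, adjusted p = 0.0112). Its means were 149 ± 26.6 and 285 ± 56.4 CPM (SD, n = 7). Its relative Prps1 had 0.21 (SE 0.13, adjusted p = 0.44). The median of the 9 was 0.21. G6pd2, Tktl1 and Tktl2, which are relatives of G6pdx and Tkt, had too few counts to be tested.

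Of 12 other genes for NADPH or NADP formation 1 passed in edgeR, while DESeq2 called 3 higher and 1 lower and voom 3 higher. Without mouse 4 edgeR called 2 higher. Nadk2, the mitochondrial NAD kinase, rose by 1.17 on the log2 scale (SE 0.20, adjusted p = 0.0192), its means being 36.3 ± 8.29 and 82.8 ± 27.0 CPM (SD, n = 7). The cytosolic kinase Nadk had -0.07 (SE 0.15, adjusted p = 0.84), and the mitochondrial malic enzyme Me3 had 0.19 (SE 0.11, adjusted p = 0.39). The median of the list was 0.23.

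Around malate and citrate, 2 of 10 genes passed. Slc25a1, the mitochondrial citrate carrier, rose by 0.76 on the log2 scale (SE 0.13, adjusted p = 0.0215), its means being 84.2 ± 19.04 and 142 ± 26.8 CPM (SD, n = 7). Pcx, pyruvate carboxylase, which replenishes oxaloacetate from pyruvate, rose by 1.00 (SE 0.21, adjusted p = 0.0382). Mdh1, the cytosolic malate dehydrogenase and the most abundant of the list, had 0.19 (SE 0.11, adjusted p = 0.40), and the median was 0.02. Nadk2 lost its call without mouse 1, 2, 3, 6 or 7, with adjusted p up to 0.0784, and Slc25a1 without mouse 1, 3, 5 or 7, with adjusted p up to 0.0887, and without mice 3 and 4 together (adjusted p = 0.062). Pcx lost it when any mouse but mouse 4 was left out, with adjusted p up to 0.133, and with no filter on low counts (adjusted p = 0.0661), and Prps2 without mouse 7 (adjusted p = 0.0508).

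Upstream, none of 8 genes of glucose uptake and glucose 6-phosphate supply passed in edgeR. At an unadjusted p below 0.05 there were 2 higher and 2 lower, DESeq2 called 1 higher and 1 lower, and voom called 3 higher and 2 lower. With edgeR 3 were higher without mouse 4, 1 was higher without mice 3 and 4, and 1 was higher and 1 lower without the block for mouse. Over all genes the fit without mice 3 and 4 called 492 of 16563 higher. The fit without the block called 877 of 16289 higher and 223 lower. Slc2a1, the glucose transporter, had -0.06 (SE 0.17, adjusted p = 0.88), and Gpi1, which links glucose 6-phosphate to glycolysis, had 0.58 (SE 0.14, adjusted p = 0.0648). The list's median was 0.04.

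Of 12 enzymes that use NADPH 5 were higher, each of them under all 13 alternatives, and the median of the list was 0.72. Over all genes tested 2.94% were higher. At an unadjusted p below 0.05 edgeR had 1 of the 12 lower, and without mouse 4 it called 1 lower after adjustment. Txnrd1, the cytosolic thioredoxin reductase, rose by 3.53 on the log2 scale (SE 0.37, adjusted p = 0.00936), its means being 182 ± 142 and 2032 ± 981 CPM (SD, n = 7). Blvrb, biliverdin reductase B, rose by 3.36 (SE 0.38), Gsr, glutathione reductase, by 2.10 (SE 0.25), and Nqo1, a quinone reductase, by 2.05 (SE 0.26). The last of the 5, Cbr1, a carbonyl reductase, rose by 1.32 (SE 0.18, adjusted p = 0.0111).

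**Figure D5:**
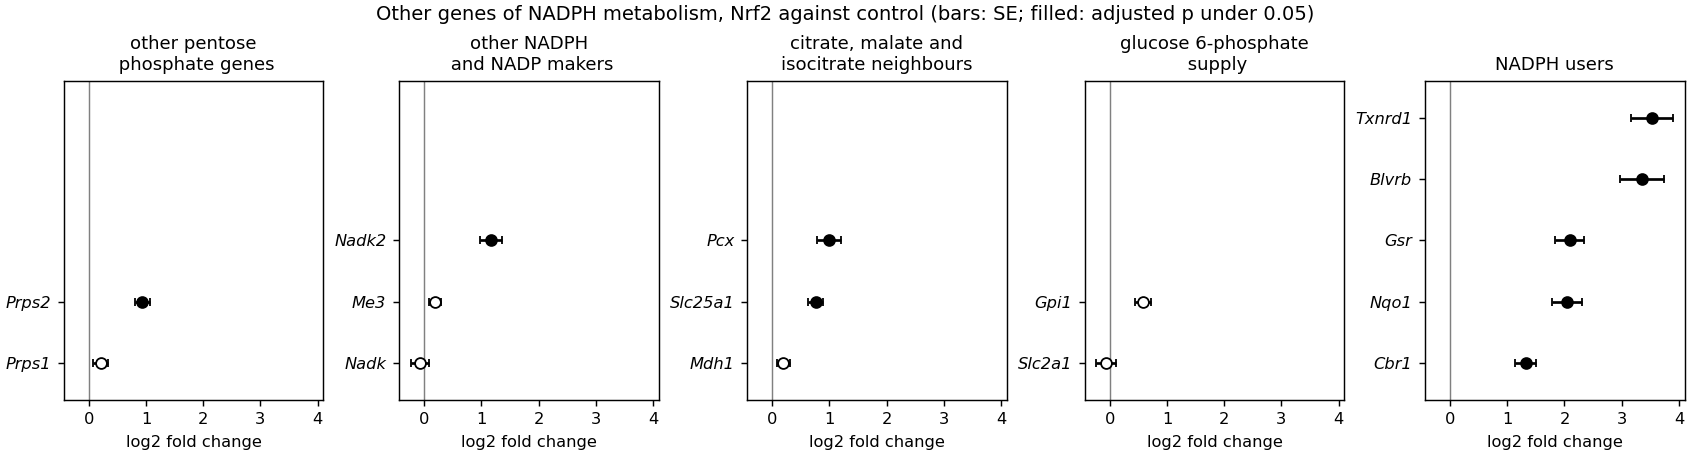
Log2 fold change of Nrf2 against control (horizontal axis) for the genes named in the text from 5 lists around the members. Bars are SE and filled points passed the threshold. The points passing are Prps2, Nadk2, Pcx, Slc25a1 and 5 NADPH users, led by Txnrd1 at 3.53.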

How the data were processed

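RNA of RPE from both eyes of 7 mice was amplified by the authors with a low-input kit and sequenced in 2 runs, and the labels do not give the run of each library. The authors deposited estimated counts for each gene (mm10, Ensembl 91), held as whole numbers and not normalized. The study's methods name STAR with featureCounts and Salmon 0.9.1 with tximport, and which of them made this table is not stated. Those methods give 6 pairs at this age, whereas the labels and table hold 7, and all 7 were used. Columns were mapped by their labels, and 34401 of 34452 mouse rows matched GENCODE M21 symbols.

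The main test was edgeR 4.0.16 (R 4.3.3), quasi-likelihood, with mouse and treatment as terms, TMM scaling and filterByExpr with a minimum count of 10. The vector transcript was left out of the adjustment. SE were derived from the F statistic, and log2 CPM used a prior count of 2. Pairing comes from the animal number in the labels. The deviations of a mouse's 2 eyes from the group means correlated between -0.44 and 0.40 over 12004 genes. The lowest value was that of mouse 4, and mouse 6 had -0.26. Mice 1, 2 and 3 had 0.034, 0.07 and 0.092, mouse 7 had 0.19 and mouse 5 had 0.40. Likeness between the eyes of a mouse was thus weak or absent in most mice. Sign-flip tests used all 128 patterns, and intervals of ratios invert that test.

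The members and lists were chosen with earlier results of these data known. Other genes are named if they passed, were among the 2 most abundant of a list, or were among the 5 most like Pgd. A gene that this rule names but the text does not is not reported here. Alternatives were no block, RLE scaling, no filter, DESeq2 1.42.0, voom with quality weights in limma 3.58.1, each mouse left out, mice 3 and 4 left out, near-identical copies added, another prior count and another transcript length. The edgeR fit, and no other step, was tested on simulated counts with an assumed spread between mice.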

Additional observations from a re-analysis of the deposited data

Results flagged for a closer look

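In 22 groups of 7 values (the 10 members and the vector transcript in each treatment), 3 held a value set apart from the rest by Dixon's criterion, where chance gives about 1.1. The vector transcript NFE2L2 stood at 1160 CPM in control 3, against 168 CPM in the next control eye. Rpia stood at 14.02 CPM in Nrf2 2, against 4.02 CPM in the next Nrf2 eye. Pgls stood at 38.2 CPM in the same library, Nrf2 2, against 65.3 CPM in the next lowest Nrf2 eye. Nrf2 2 had the fewest counts, 16548349, and 2.55% of them in pseudogenes, and the part of either in these values was not tested. None of the 4 members that passed held such a value.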

How the results depend on the processing

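Pgd and Taldo1 kept their call under all 13 alternatives, with log2 fold changes of 1.87 to 2.25 and 1.61 to 1.97. G6pdx kept it except without mouse 7 (1.42, adjusted p = 0.0569), and adding G6pd2 changed nothing (1.53). Me1 lost it in 5 of the 7 fits that leave out a mouse, as given with its values. The number of members differing was 2 to 4 when a mouse was left out, the 2 being without mouse 7, and 4 otherwise. All pair ratios and class sums kept their direction, and with mice 3 and 4 left out the sign-flip test cannot go below 0.0625. The signs of both members closest to 0 turned: Idh2 was 0.0128 with RLE scaling, 0.000374 with no filter, 0.00932 without mice 3 and 4, 0.0117 with DESeq2 and -0.14 to 0.0662 when a mouse was left out. Rpia was 0.0923 with no replicate block and -0.36 to 0.13 when a mouse was left out. The paired design moved no call among the members: with no replicate block 1100 genes differed over the whole table (877 higher, 223 lower), against 559 with it (479 higher, 80 lower), and 547 were shared. Without a filter 347 differed (307 higher, 40 lower), with DESeq2 1907 (1217 higher, 690 lower), with voom 2590 (1585 higher, 1005 lower), and without mice 3 and 4 253 were lower. Leaving out a mouse gave 111 to 1998 genes, 102 to 978 higher and 9 to 1020 lower, the fewest without mouse 7 and the most without mouse 4. The cause was not tested. The all-gene median moved from -0.04 to 0.06 under DESeq2. Each group had 7 mice, which limits the precision of every value. The labels do not give the run of each library, so values within runs were not compared.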
